A study of Homo sapiens with 4 samples.

Results

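The genes described here were 8 core genes of the PI3K-AKT-mTOR pathway, PIK3CA, PIK3CB, PIK3R1, AKT1, AKT2, MTOR, RPTOR and TSC2, taken by name from a table of 47251 genes in AGS cells. All 8 were listed on 1 row each, and all 8 were among the 9873 genes that entered the test, those whose 4 libraries averaged 1 FPKM or more (FPKM is a count of fragments scaled by transcript length and by library size). AGS is a cell line from a human gastric adenocarcinoma. RNA was sequenced from 4 libraries: 2 from cells silenced for MFAP2 by a short hairpin RNA (sh-MFAP2) and 2 from cells given the control hairpin (sh-control). The hairpins were delivered by lentivirus and the cells were kept as stably selected lines, so both groups shared the vector and the drug selection. Only 1 hairpin against MFAP2 was sequenced. The labels do not say whether replicates came from separate cultures, so every p-value measures only the spread between these libraries, which may be technical.

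Class IA PI3K is a dimer of a catalytic p110 subunit and a regulatory subunit, and activated growth factor receptors recruit it to the membrane, where it makes the lipid PIP3. PIP3 brings AKT kinases to the membrane for activation by PDPK1 and mTORC2, and AKT then phosphorylates TSC2, the part of the TSC complex that keeps the small GTPase RHEB switched off. Released RHEB activates mTORC1, the complex of the kinase mTOR with Raptor, which drives protein synthesis and growth, and PIK3CA is among the genes recurrently mutated in gastric cancer. The pathway is switched mainly by phosphorylation, which RNA levels do not measure.

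The depth inferred from the steps between low values was 54767000 to 74996400 reads per library, a depth the authors do not state, and the 8 genes held from about 927 reads (PIK3CA) to about 13680 reads (AKT1) in a library. The epithelial markers EPCAM, KRT8, KRT18 and KRT19 lay between 193 and 803 FPKM in every library, whereas CLDN4 was at 47.1 FPKM in sh-MFAP2 replicate 1 and did not exceed 0.551 FPKM in the other 3. Of 10 markers of blood, endothelial and fibroblast cells, only COL1A1 exceeded 1 FPKM, and the summed level of the 10 was 2.13 to 2.39 FPKM in sh-MFAP2 and 4.41 to 4.96 FPKM in control. COL1A1 made up nearly all of this sum, and the other 9 together summed to 0.116 and 0.0589 FPKM with the MFAP2 hairpin, against 0.0564 and 0.0430 FPKM with the control hairpin; the part of these markers in the results was not tested. In bulk RNA, fewer cells of a kind and less RNA per cell cannot be told apart. MFAP2 itself had a value of 0 in both libraries meant to lack it and of 0.0116 and 0.0138 FPKM in the controls, about 2.01 and 3.01 inferred reads. The knockdown therefore could not be checked from these sequencing values. The paper reports checking it by western blot and quantitative PCR. Of all genes tested, 384 were higher and 830 lower at an unadjusted p under 0.05, so that 31.6% of these were higher, a share that became 47.1% after quantile normalization and 49.3% after scaling by the median of ratios.

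Isoforms matter to the results for PIK3R1 and AKT2 below, and the short coding stretches shown here tell apart the proteins that each gene can encode. PIK3R1 encodes 3 regulatory subunits that share the carboxy-terminal part and start at different first exons: p85 alpha with 724 codons, p55 alpha with 454 and p50 alpha with 424. The first 30 coding bases of each (GENCODE 29 on GRCh38, plus strand, start codon in capitals) lie at chr5:68226676-68226705 for p85 alpha, at chr5:68290729-68290758 for p55 alpha, and at chr5:68288736-68292272 across an intron for p50 alpha.
PIK3R1 p85 alpha: ATGagtgctgaggggtaccagtacagagcg
PIK3R1 p55 alpha: ATGtacaatactgtttggaatatggaagac
PIK3R1 p50 alpha: ATGcataacctgcaaacactgcctcctaaa
The 2 main AKT2 transcripts differ by 1 coding exon of 129 bases, or 43 codons, at chr19:40236257-40236385 on the minus strand, which the shorter form skips without changing the reading frame. The junctions below cover 15 bases on either side, with the bases of that exon in capitals.
AKT2 entry, ENST00000392038: taccgcgacatcaagCTGGAAAACCTCATG
AKT2 exit, ENST00000392038: TACCTGGCGCCTGAGgtgctggaggacaat
AKT2 skipped, ENST00000424901: taccgcgacatcaaggtgctggaggacaat

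No difference in the 8 core genes passed the test. With limma on log2(FPKM + 1), 0 of 8 passed p under 0.01 with a Benjamini-Hochberg adjusted p under 0.05, and 0 of 8 reached even an unadjusted p under 0.05. Among all 9873 genes tested, 27 (0.273%) were called, 8.41% were lower and 3.89% higher at an unadjusted p under 0.05. The lowest value among the 8 was that of PIK3R1, at a log2 fold change of -0.28, and the highest that of AKT2, at 0.26. In 4 of the 8, PIK3CA, PIK3CB, PIK3R1 and TSC2, both sh-MFAP2 libraries lay below both controls, and in none did both lie above. Over all genes tested, 31.4% were separated downward and 17.5% upward in this way. The median log2 fold change of the 8 genes was -0.13, beside -0.05 for all genes tested, and the median of the 8 became -0.06 after quantile normalization and -0.07 after scaling by the median of ratios. Relabelling 2 against 2 libraries in every possible way gives no p under 0.333, so no exact test of 1 gene could pass.

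**Figure D1:**
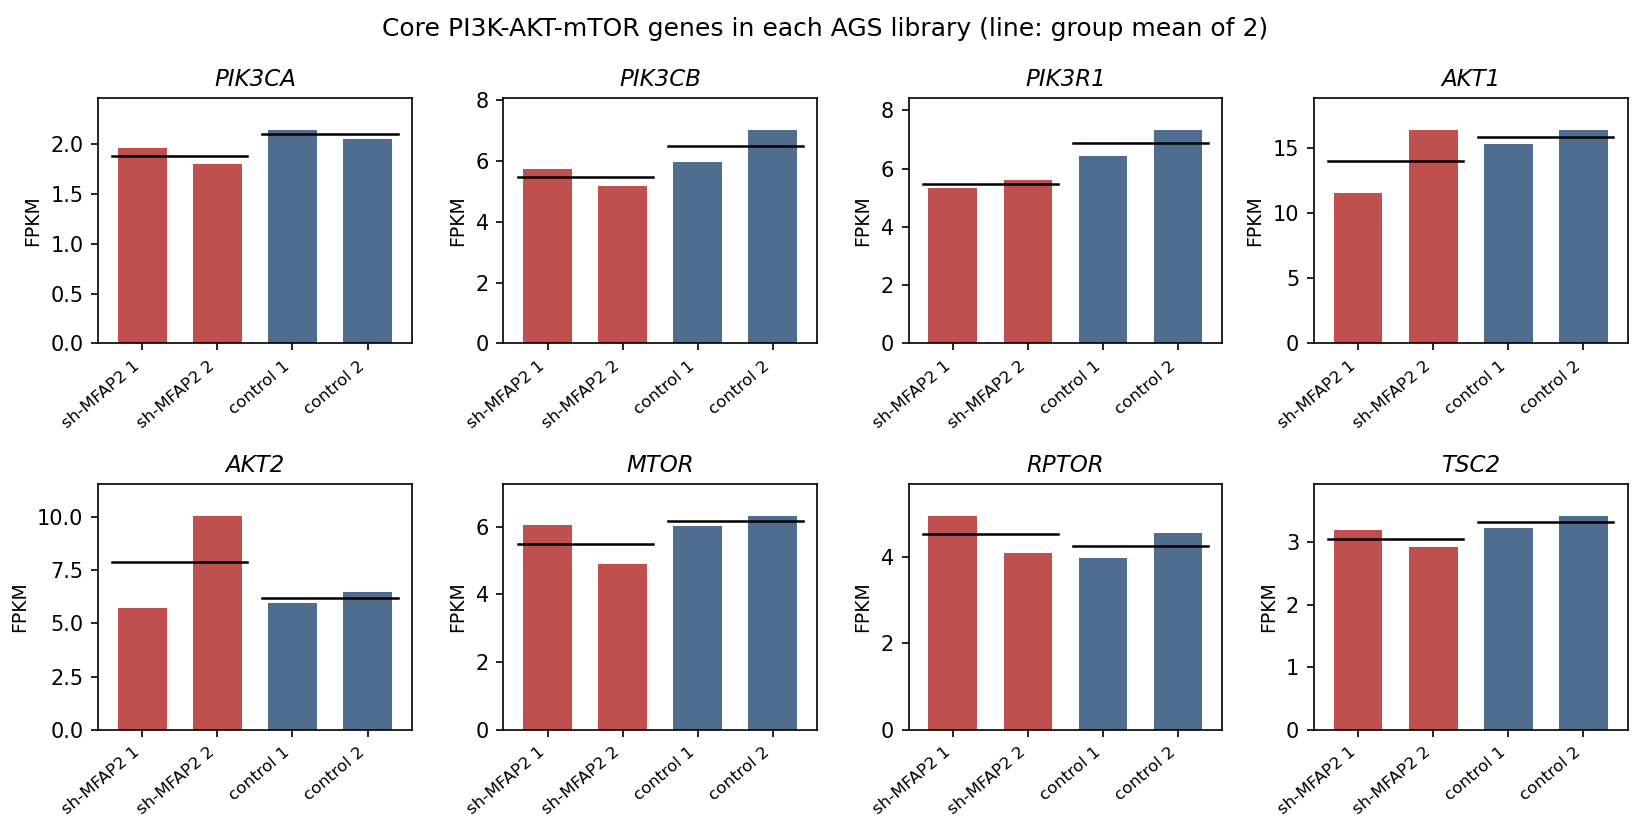
FPKM (vertical axis, from 0) of each core gene in the 2 sh-MFAP2 libraries (red) and the 2 control libraries (blue), with a black line at each group mean of 2. AKT1 is lowest in sh-MFAP2 replicate 1 (11.6 FPKM), AKT2 is highest in sh-MFAP2 replicate 2 (10.0 FPKM), and both sh-MFAP2 bars of PIK3R1 lie below both control bars.

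PIK3CA (ENSG00000121879, chr3:179148114-179240093, plus strand) encodes the catalytic subunit p110 alpha. In order of replicate number, as in all pairs of values here, it measured 1.96 and 1.80 FPKM with the MFAP2 hairpin and 2.14 and 2.05 FPKM with the control hairpin. Both sh-MFAP2 values lay under both controls, by a margin smaller than the spread within sh-MFAP2. This gave a log2 fold change of -0.10 (95% interval -0.40 to 0.19), with an adjusted p of 0.668. Exons of KCNMB3 on the opposite strand cover 35.8% of PIK3CA's exonic bases, and KCNMB3 was at 0.0239 to 0.0378 FPKM in the 4 libraries. Without the strand setting of the counting, reads of the 2 genes cannot be told apart there, and no other gene covered more than 5.94% of a core gene's exonic bases.

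PIK3CB (ENSG00000051382, chr3:138652699-138834938, minus strand) encodes p110 beta, the second widely expressed catalytic subunit. It stood at 5.74 and 5.19 FPKM in libraries of sh-MFAP2 cells and at 5.97 and 7.02 FPKM in the control libraries. Control replicate 2 was the high library, and control replicate 1 lay close to sh-MFAP2 replicate 1. The log2 fold change was -0.21 (95% interval -0.58 to 0.16; adjusted p = 0.539), and -0.33 (adjusted p = 0.390) when the gene value was replaced by the sum of its listed transcripts. PIK3CB exceeded PIK3CA in every library, by a ratio of 2.79 to 3.42 on gene values and of 5.64 to 7.21 on sums of transcripts. PIK3CD, the p110 delta subunit typical of white blood cells, was at 0.357 to 0.425 FPKM and was not tested.

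PIK3R1 (ENSG00000145675, chr5:68215720-68301821, plus strand) encodes the regulatory subunits, which hold p110 stable and inactive until a receptor engages them. Its values were 5.33 and 5.61 FPKM under sh-MFAP2 and 6.42 and 7.32 FPKM under sh-control. The groups did not overlap, and the means were 5.47 ± 0.196 and 6.87 ± 0.636 FPKM (SD, n = 2 each). The log2 fold change of -0.28 had a 95% interval from -0.61 to 0.05, and neither the unadjusted p of 0.0758 nor the adjusted p of 0.424 from limma met the threshold. On the sum of its listed transcripts the log2 fold change was -0.46 (unadjusted p = 0.0246 and adjusted p = 0.351, limma). Of the other regulatory genes, PIK3R3 lay between 1.43 and 1.78 FPKM with overlapping groups. PIK3R2 was at 5.80 FPKM in sh-MFAP2 replicate 1 and at 0.0229, 0.00374 and 0.00730 FPKM in the other 3 libraries, so 1 library held nearly all of its signal.

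The 2 transcripts that carried PIK3R1 encode the same p85 alpha of 724 codons, share the p85 alpha start printed above, and differ in their ends outside the coding part. The longer, ENST00000521381 (7011 bases, ending at chr5:68301821), measured 8.07 and 7.99 FPKM with the MFAP2 hairpin, against 7.86 and 8.90 FPKM with the control hairpin. The shorter, ENST00000521657 (3891 bases, ending at chr5:68298753), was listed at 0 and 0.796 FPKM in cells with sh-MFAP2 and at 3.14 and 3.65 FPKM in control cells. The long form was level across the 4 libraries, whereas the short form was low or at 0 in both sh-MFAP2 libraries and made up 26.2% and 26.7% of the PIK3R1 transcript FPKM in the controls. Its log2 fold change was -1.71 (95% interval -2.77 to -0.65; unadjusted p = 0.0117, adjusted p = 0.474, limma over 22312 transcripts), which did not pass. Of the difference between the group means of PIK3R1, 77.2% lay in this transcript. A gene value rebuilt without it, an alternative chosen after seeing the data, was 5.33 and 5.32 FPKM in libraries of sh-MFAP2 cells and 5.29 and 6.0 FPKM in the control libraries, with overlapping groups and a log2 difference of -0.07. The p55 alpha transcript ENST00000336483, too low to be tested and named after its values were seen, was at 0.0770 and 0.0898 FPKM under sh-MFAP2 and at 0.416 and 0.402 FPKM under sh-control, and the p50 alpha transcript ENST00000320694 did not exceed 0.0298 FPKM. The short p85 alpha form shares 99.9% of its exonic bases with the long one, so reads that both could have given had to be shared between them by the authors' estimate.

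**Figure D2:**
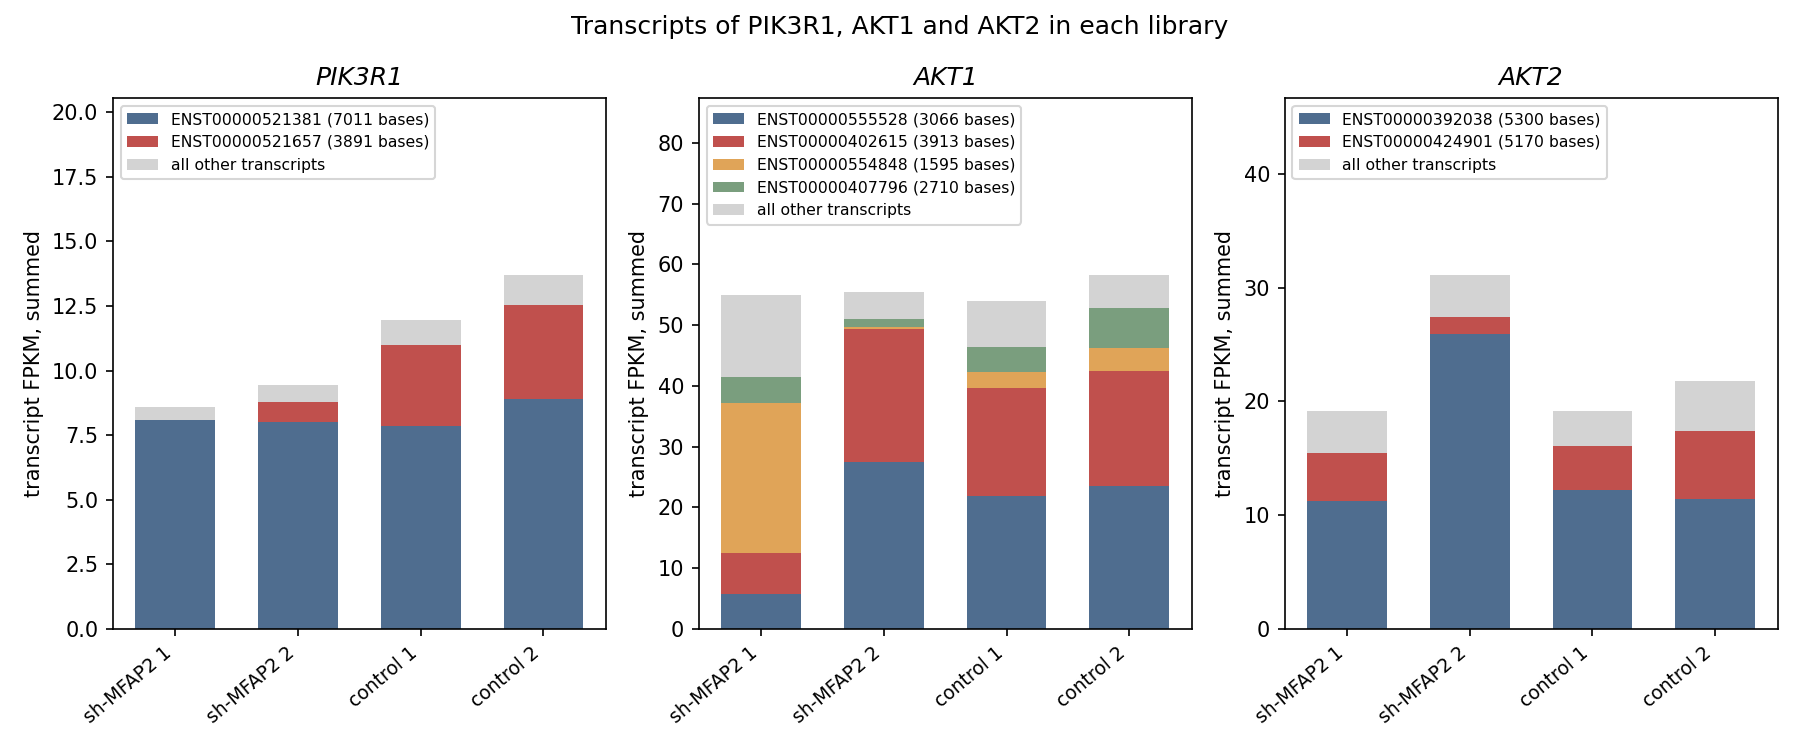
FPKM of the leading transcripts of PIK3R1, AKT1 and AKT2, stacked for each library, with all other listed transcripts in grey. The red part of PIK3R1 (ENST00000521657) is 0 and 0.796 FPKM with the MFAP2 hairpin, against 3.14 and 3.65 FPKM with the control hairpin, the orange part of AKT1 stands out in sh-MFAP2 replicate 1, and the blue part of AKT2 stands out in sh-MFAP2 replicate 2.

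AKT1 (ENSG00000142208, chr14:104769349-104795751, minus strand), the AKT kinase most tied to growth and survival, had the highest level of the 8. It measured 11.6 and 16.4 FPKM in cells with sh-MFAP2 and 15.3 and 16.3 FPKM in control cells. One sh-MFAP2 library lay below the other 3 and the second was at the level of the controls. The log2 fold change was -0.19 (95% interval -0.75 to 0.38; adjusted p = 0.693), and without sh-MFAP2 replicate 1 it was 0.05. The summed FPKM of its 18 listed transcripts was level instead, at 54.9 and 55.5 in sh-MFAP2 and 53.9 and 58.3 in control, with a log2 fold change of -0.02.

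The library that stood apart for the AKT1 gene value also stood apart in its transcripts. The short transcript ENST00000554848 (1595 bases) was at 24.8 FPKM in sh-MFAP2 replicate 1, and at 0.327, 2.61 and 3.87 FPKM in sh-MFAP2 replicate 2 and control replicates 1 and 2. The most abundant transcript, ENST00000555528 (3066 bases), went the opposite way, at 5.80 FPKM in sh-MFAP2 replicate 1 and at 27.5, 21.9 and 23.5 FPKM in the other 3. Both carry the same coding sequence of 480 codons, and 95.4% of the short one's exonic bases lie in the long one. These values set 1 library against 3, not sh-MFAP2 against control, and no AKT1 transcript was called.

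AKT2 (ENSG00000105221, chr19:40230317-40285536, minus strand), the AKT kinase best known for its part in the insulin control of glucose uptake, was at 5.74 and 10.0 FPKM in libraries of sh-MFAP2 cells and at 5.94 and 6.48 FPKM in the control libraries. Replicate 2 of sh-MFAP2 was the high library, and replicate 1 lay below both controls. The log2 fold change was 0.26, with the widest interval of the 8 (-0.53 to 1.05; adjusted p = 0.696), and it turned to -0.10 without sh-MFAP2 replicate 2. The transcript that keeps the 129-base exon, ENST00000392038, was at 11.2 and 25.9 FPKM under sh-MFAP2 and 12.2 and 11.4 FPKM under sh-control. The transcript that skips it, ENST00000424901, was at 4.25 and 1.48 FPKM with the MFAP2 hairpin, against 3.81 and 5.99 FPKM with the control hairpin. Replicate 2 of sh-MFAP2 was thus highest for the long form and lowest for the skipped form, while the other 3 libraries ran from 11.2 to 12.2 FPKM for the long form and from 3.81 to 5.99 FPKM for the skipped form. PDPK1, the kinase that activates AKT, was at 3.60 and 3.04 FPKM in cells with sh-MFAP2 and 3.68 and 4.22 FPKM in control cells.

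MTOR (ENSG00000198793, chr1:11106535-11262507, minus strand) encodes the kinase of mTORC1 and mTORC2. It stood at 6.05 and 4.91 FPKM in libraries of sh-MFAP2 cells and at 6.03 and 6.31 FPKM in the control libraries, with replicate 2 of sh-MFAP2 alone below the rest. Its log2 fold change was -0.15 (95% interval -0.53 to 0.23; adjusted p = 0.638). Nearly all of the MTOR signal came from ENST00000361445, at 8.28 and 6.73 FPKM under sh-MFAP2 and 8.33 and 8.75 FPKM under sh-control.

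RPTOR (ENSG00000141564, chr17:80544819-80966371, plus strand) encodes Raptor, which presents substrates to mTORC1. Its values were 4.95 and 4.10 FPKM with the MFAP2 hairpin, against 3.98 and 4.55 FPKM with the control hairpin, and the groups overlapped. The log2 fold change was 0.07 (95% interval -0.32 to 0.46; adjusted p = 0.845), and it changed sign without replicate 1 of sh-MFAP2 (-0.04) or of control (-0.01). The ratio of MTOR to RPTOR within a library was 1.22 and 1.2 in sh-MFAP2 and 1.51 and 1.39 in control, so that the groups did not overlap. This ratio was not tested and was noticed among 5 ratios of pairs of core genes. Of these, AKT1 to AKT2 was separated too on gene values, and PIK3R1 to PIK3CB on sums of transcripts. The share of all gene pairs separated in this way was not computed. Relabelling 2 against 2 libraries gives no p under 0.333, so no separation of 1 ratio could pass an exact test.

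RICTOR, the defining subunit of mTORC2, was at 2.08 and 2.37 FPKM in cells with sh-MFAP2 and at 3.14 and 3.04 FPKM in control cells (log2 fold change -0.34, adjusted p = 0.394). MAPKAP1, the mTORC2 subunit known as SIN1, stood at 13.8 and 10.8 FPKM in libraries of sh-MFAP2 cells and at 15.1 and 14.9 FPKM in the control libraries. Both were lower in each sh-MFAP2 library than in each control, as were 31.4% of all genes tested, and neither was called. PRR5, a further mTORC2 subunit named after its values were seen, overlapped between groups and leaned the opposite way, at 2.0 and 1.32 FPKM under sh-MFAP2 and 1.45 and 1.11 FPKM under sh-control (log2 fold change 0.21, adjusted p = 0.632). Of the 8 genes tested in the list of mTOR complex subunits, which leaves out MTOR and RPTOR, 3 were separated downward and 1 upward. MLST8, shared by both complexes, and AKT1S1, the mTORC1 inhibitor PRAS40, overlapped between groups at 7.30 to 10.5 and 9.86 to 16.2 FPKM. DEPTOR, a further inhibitor of both complexes, did not exceed 0.409 FPKM.

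TSC2 (ENSG00000103197, chr16:2047465-2089487, plus strand) encodes tuberin, the GTPase-activating subunit of the TSC complex. It measured 3.19 and 2.92 FPKM under sh-MFAP2 and 3.22 and 3.42 FPKM under sh-control. The groups were separated only by the small gap between sh-MFAP2 replicate 1 and control replicate 1. This amounted to a log2 fold change of -0.09 (95% interval -0.39 to 0.21; adjusted p = 0.720), which was -0.01 after quantile normalization. The leading transcript ENST00000350773 was level, at 3.84 and 3.53 FPKM with the MFAP2 hairpin, against 3.82 and 4.02 FPKM with the control hairpin, and the next, ENST00000401874, was at 1.32 and 0.384 FPKM in cells with sh-MFAP2 and 2.04 and 2.02 FPKM in control cells (log2 fold change -0.76, unadjusted p = 0.0926, limma). The longest coding form, ENST00000219476 with 1807 codons, was too low to be tested and went the opposite way, at 0.503 and 0.780 FPKM under sh-MFAP2 and 0.0947 and 0.240 FPKM under sh-control. Hamartin, the scaffold of the complex encoded by TSC1, was at 2.36 and 2.38 FPKM in libraries of sh-MFAP2 cells and 2.87 and 3.31 FPKM in the control libraries. The third subunit, TBC1D7, lay between 2.92 and 3.59 FPKM, and RHEB, the GTPase that the complex restrains, between 29.7 and 40.1 FPKM, both with overlapping groups.

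**Figure D3:**
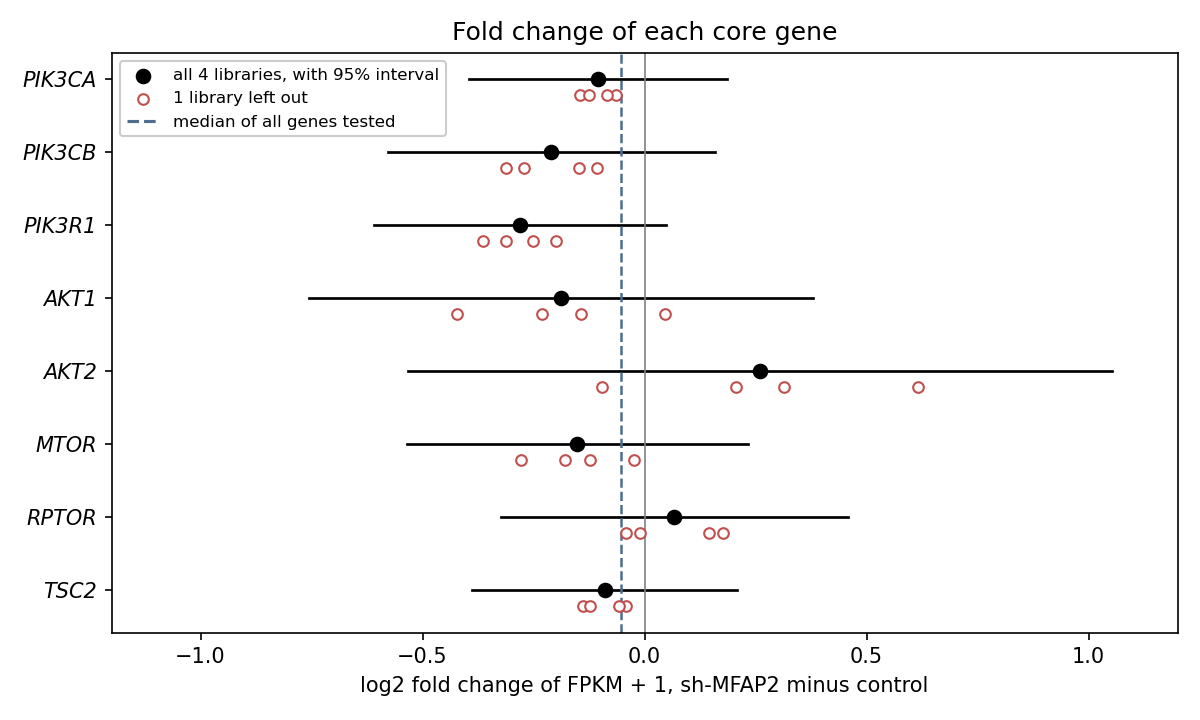
Log2 fold change of FPKM + 1 in sh-MFAP2 against control for each core gene (black points, 95% intervals from limma as lines), with the 4 values obtained by leaving out 1 library (open circles) and the median of all genes tested (dashed line, -0.05). Every interval spans 0, and the open circles of AKT1, AKT2 and RPTOR fall on both sides of 0.

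The order of the 8 genes by level was AKT1, AKT2, PIK3R1, PIK3CB, MTOR, RPTOR, TSC2 and PIK3CA. Averaged over the 4 libraries, it ran from 14.9 ± 2.28 FPKM for AKT1 through 7.05 ± 2.02 for AKT2, 6.17 ± 0.896 for PIK3R1, 5.98 ± 0.767 for PIK3CB, 5.83 ± 0.622 for MTOR, 4.40 ± 0.440 for RPTOR and 3.19 ± 0.203 for TSC2 to 1.99 ± 0.146 for PIK3CA (SD over 4 libraries of both groups). The ranges of AKT1, TSC2 and PIK3CA each stood clear of their neighbours, while those of AKT2 through RPTOR overlapped from each gene to the next. The order depended on the length by which a gene was scaled: each gene value equalled the length-weighted sum of the FPKM of its transcripts over 1 gene length, which ranged from 7850 bases for PIK3CB to 14811 bases for AKT2 and in 4 of 8 genes was the same as the exonic length in GENCODE 29. On sums of transcripts PIK3CB moved ahead of PIK3R1 and TSC2 ahead of RPTOR.

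Of the 123 listed transcripts of the 8 genes, 18 averaged 1 FPKM or more. None was called by limma, as among all 22312 transcripts tested, and 1, the short PIK3R1 form, reached an unadjusted p under 0.05, beside 4.41% of all transcripts lower and 3.22% higher. Both sh-MFAP2 libraries lay below both controls in 6 of the 18 and above in 0, beside 24.9% and 17.8% of all transcripts. PIK3CA, MTOR and RPTOR each rested on 1 tested transcript, ENST00000263967, ENST00000361445 and ENST00000306801. The PIK3CA transcript stood at 2.03 and 1.86 FPKM with the MFAP2 hairpin, against 2.21 and 2.11 FPKM for the control hairpin, and that of RPTOR at 7.02 and 5.77 FPKM, against 5.67 and 6.29 FPKM. The leading PIK3CB transcript, ENST00000477593, was at 8.74 and 8.10 FPKM under sh-MFAP2 and at 9.20 and 11 FPKM under sh-control.

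The rest of the pathway was followed in 119 further genes in 14 role lists, of which 91 could be tested. None was called, and 9 (9.89%) reached an unadjusted p under 0.05, 2 higher and 7 lower, beside 12.3% of all genes tested. Their median log2 fold change was -0.03, or 0.02 under either scaling. Both sh-MFAP2 libraries lay below both controls in 24 of the 91 (26.4%) and above in 12 (13.2%). Both shares were under those of all genes tested, 31.4% and 17.5%. The count of 9 became 20 when sh-MFAP2 replicate 2 was left out and 5 when control replicate 1 was, so it depended on single libraries.

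Among these 9, TBC1D4, the AKT substrate AS160 that holds back glucose transporters until phosphorylated, had the largest difference, at 18.8 and 19.4 FPKM with the MFAP2 hairpin, against 43.1 and 49.6 FPKM with the control hairpin. Its log2 fold change was -1.23 (95% interval -1.59 to -0.88), with an unadjusted p of 0.000762 and an adjusted p of 0.134 from limma. Both sh-MFAP2 libraries lay far below both controls, yet TBC1D4 did not pass the adjusted threshold. It was 1 of 9 AKT substrates tested, and GSK3A and GSK3B, 2 others, pointed in opposite directions at 0.64 and -0.43 on the log2 scale with adjusted p of 0.461 and 0.597.

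In the amino acid branch, which brings mTORC1 to the lysosome, 3 of 21 genes tested (14.3%) reached an unadjusted p under 0.05, all lower, a share near the 12.3% of all genes tested (8.41% lower). FNIP2 and FNIP1, partners of folliculin in the control of the RAG GTPases, had log2 fold changes of -0.70 and -0.48, with adjusted p of 0.330 and 0.370. MIOS, part of the GATOR2 complex, was at 7.23 and 6.94 FPKM in cells with sh-MFAP2 and 8.70 and 9.04 FPKM in control cells (log2 fold change -0.29, adjusted p = 0.403). PRKAA1, a catalytic subunit of AMPK, which activates TSC2 under energy stress, was the only 1 of 7 energy and stress inputs to do so (log2 fold change -0.39, adjusted p = 0.398). In 8 of the 21 genes of the amino acid branch (38.1%) both sh-MFAP2 libraries lay below both controls and in 1 above, beside 31.4% and 17.5% of all genes tested.

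Transcription downstream of the pathway was followed in targets of FOXO and ATF4. Of 6 tested genes induced by FOXO, the transcription factors that AKT keeps out of the nucleus, TXNIP was at a higher level (7.16 and 6.07 FPKM in libraries of sh-MFAP2 cells and 4.22 and 4.12 FPKM in the control libraries; adjusted p = 0.337) and CCNG2 at a lower one (1.12 and 1.35 FPKM under sh-MFAP2 and 2.24 and 2.29 FPKM under sh-control; adjusted p = 0.330). Neither was called. TXNIP and CCNG2 were the 2 of the 6 (33.3%) at an unadjusted p under 0.05 from limma, beside 12.3% of all genes tested. Of the 6, 2 had a positive log2 fold change and 4 a negative one, and the median was -0.03. KLF6 had the largest difference of the 6 and was not called (log2 fold change -1.10, adjusted p = 0.409). It was at 13.8 and 6.15 FPKM with the MFAP2 hairpin, against 20.3 and 21.8 FPKM with the control hairpin. Among 8 tested targets of ATF4, a transcription factor whose output mTORC1 can raise, 6 had a positive log2 fold change and the median was 0.22. Of all genes tested, 42% were positive and the median was -0.05. SLC7A5, ALDH18A1 and CHAC1, counted as positive, lay above both controls in sh-MFAP2 replicate 1 and below both in sh-MFAP2 replicate 2. The count of 6 thus rested in part on sh-MFAP2 replicate 1. ASNS, asparagine synthetase, was the only 1 of the 8 at an unadjusted p under 0.05 from limma. It was at 6.74 and 6.34 FPKM with the MFAP2 hairpin, against 4.58 and 4.49 FPKM with the control hairpin (log2 fold change 0.44, adjusted p = 0.341). ATF4 itself, which was counted with its targets in the role lists, was at 125 and 128 FPKM in cells with sh-MFAP2 and at 39.8 and 96.6 FPKM in control cells, with control replicate 1 far below the other 3 libraries.

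**Figure D4:**
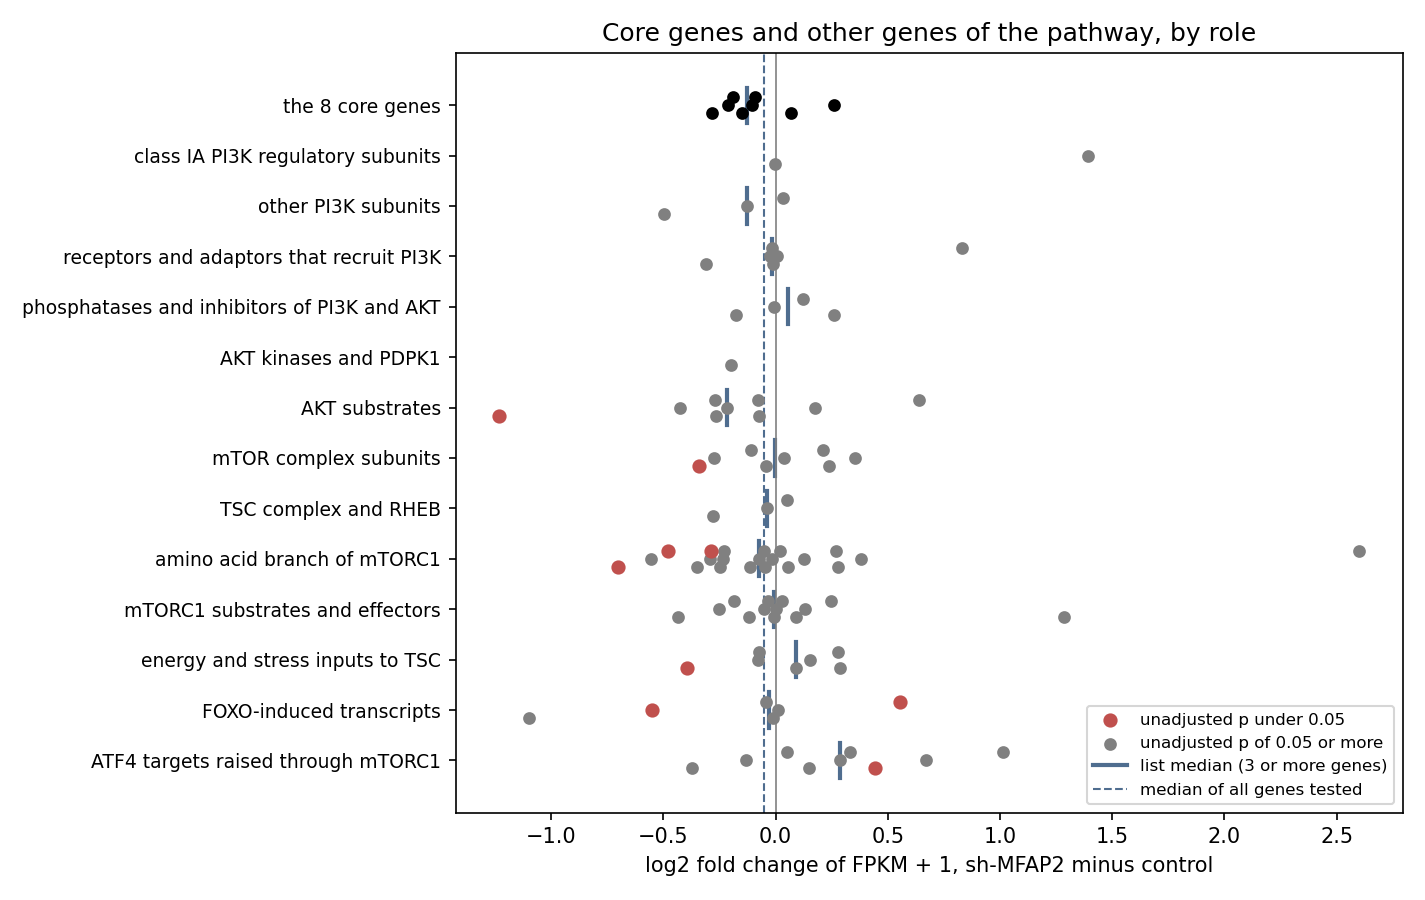
Log2 fold change of FPKM + 1 in sh-MFAP2 against control (horizontal axis) for the 8 core genes and for the tested genes of each role list, 1 point per gene, with red points at an unadjusted p under 0.05, short bars at list medians (ATF4 is counted with its targets) and a dashed line at the median of all genes tested. The core genes lie between -0.28 and 0.26, TBC1D4 is the leftmost red point at -1.23, and the outlying grey points at 1.29 and above are EIF4EBP2, PIK3R2 and RRAGA.

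The genes whose profile over the 4 libraries lay nearest to the mean profile of the 8 core genes were SMYD5, MGA and PIP4K2A. Their root mean square distances from it were 0.0034, 0.0085 and 0.0096 on the centred log2 scale, computed over only 4 libraries. Single core genes lay further from this mean and on both sides of it. In sh-MFAP2 replicate 2 the centred value was 0.486 for AKT2 and -0.202 for MTOR, beside -0.014 for the mean. Nearness to the mean is therefore not nearness to each core gene. PIP4K2A, a lipid kinase that acts on a phosphoinositide, was at 4.15 and 4.30 FPKM under sh-MFAP2 and at 4.39 and 4.82 FPKM under sh-control. With 4 points and small differences, such likeness is a description of these libraries.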

How the data were processed

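The authors deposited 1 table of genes and 1 table of transcripts with a value per library. The deposited values were taken as FPKM from their fractional steps and unequal totals. The submitters' processing notes name the build hg38; aligner, estimator, strandedness and annotation are not given in the sources used here. Whole multiples of 1 step (within 0.05) accounted for only 59.0% to 59.2% of low values, so reads were not recovered and no count test was used. Single values have no counting interval.

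Groups came from the shRNA label. Genes and transcripts with a mean of at least 1 FPKM were tested on log2(FPKM + 1), whose fold changes understate those of low genes, with limma 3.58.1 in R 4.3.3 (lmFit, then eBayes with trend), two-sided, with Benjamini-Hochberg adjustment over all features, on all 4 libraries without a replicate block. The fit was tested on simulated data. The core genes, the role lists and the tests were chosen with earlier results of these data known. Names follow a rule: the core genes, 14 partners, and listed genes called or at an unadjusted p under 0.05 (at most 12). The rule also takes the leading transcripts with any at an unadjusted p under 0.05, and the 3 nearest profiles. GSK3A, GSK3B, ATF4, SLC7A5, ALDH18A1, CHAC1, KLF6, EIF4EBP2, RRAGA, PRR5 and KCNMB3 were named after their values were seen. So were the AKT1, AKT2 and TSC2 transcripts after the leading one of each gene, and the p55 alpha and p50 alpha transcripts of PIK3R1. Some partners and markers are not reported here. PIK3R3 is on 2 rows, the second at 0. Alternatives were all features above 0 in any library, a minimum mean of 5 FPKM, a pseudocount of 0.1, quantile and median-of-ratios scaling, the block, eBayes without trend, gene values as sums of transcripts, and each library left out in turn. Positions and sequences are from GENCODE 29 on GRCh38, in which all 123 transcripts were found, 110 with the length in the table. All those with another length were TSC2 transcripts, among them ENST00000350773, ENST00000401874 and ENST00000219476. The gene length of TSC2 was 11034 bases as implied by the deposited values and 19626 exonic bases in GENCODE 29. Tables were handled in Python 3.11.15 with pandas 2.3.3 and drawn with matplotlib 3.10.9.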

Additional observations from a re-analysis of the deposited data

How the results depend on the processing

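No core gene, listed pathway gene or core transcript was called under any alternative run, and adjusted p for the core genes ran from 0.204 (AKT1 without sh-MFAP2 replicate 2) to 0.992. Leaving out 1 library, with a lone library assumed to vary like the rest, gave log2 fold changes of -0.42 to 0.047 for AKT1, -0.096 to 0.62 for AKT2 and -0.043 to 0.18 for RPTOR (-0.011 without control replicate 1), each on both sides of 0; the other 5 core genes kept their sign under every alternative. The count of listed pathway genes at an unadjusted p under 0.05 ran from 5 to 20 without 1 library and was 4 under the 5 FPKM minimum, where fewer genes were tested. Their median log2 fold change was 0.0235 after quantile normalization, 0.0236 after scaling by the median of ratios, -0.060 on sums of transcripts and -0.094 to -0.0080 without 1 library. The median of the core genes was -0.19 under the 5 FPKM minimum, which left 5 of them, -0.065 and -0.073 under both scalings in that order, and -0.15 to -0.080 without 1 library. Apart from the smaller number of genes or libraries, the cause was not tested. With the replicate number as a block, log2 fold changes were the same and 0 of all genes were called instead of 27, with 722 instead of 1214 at an unadjusted p under 0.05. Across all genes, same-numbered libraries did not deviate together (r = -0.06 across 9873 genes, which are not independent replicates). With 2 libraries a group, this correlation cannot show whether same-numbered libraries shared a culture or a batch. The genes called numbered 6 over all features above 0, 9 under the 5 FPKM minimum and 0 without any 1 library. With 2 libraries a group, the 95% intervals of the core genes still allow differences of up to 1.05 on the log2 scale (AKT2).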

Other observations

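Some genes of the pathway list, named after their values were seen, differed widely between the 2 libraries of a group. RRAGA, a RAG GTPase of the amino acid branch, was at 35.8 FPKM in sh-MFAP2 replicate 2 and listed at 0 in the other 3 libraries. IRS1, the insulin receptor adaptor that recruits PI3K, was at 3.08 and 2.76 FPKM with the MFAP2 hairpin, against 0.0758 and 3.51 FPKM with the control hairpin. EIF4EBP2, a translation repressor that mTORC1 inactivates, was at 19.7 FPKM in both sh-MFAP2 libraries and at 21.5 and 2.21 FPKM in control. CDKN1B, the cell cycle inhibitor p27 that AKT phosphorylates, was at 17.1 and 3.23 FPKM in cells with sh-MFAP2 and at 23.3 and 3.58 FPKM in control cells, low in replicate 2 of each group. A stricter pattern was a highest value of at least 5 FPKM and a lowest value under 10% of it. Of the 91 listed genes tested, 2 met it, PIK3R2 and RRAGA, as did 203 of the 9873 genes tested and 0 of the 8 core genes.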
